A study of Mus musculus with 2 samples.

Results

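The regions described here are 220 long domains of histone H3 trimethylated at lysine 27 (H3K27me3) on 13 mouse autosomes, chromosomes 1, 3, 4, 5, 6, 7, 10, 12, 13, 14, 16, 17 and 18. They were found by joining replicated peaks separated by 3000 bp or less and keeping stretches of 10000 bp or more. They hold 2970 of the 38300 replicated peaks of the series and 220 of the 14456 joined stretches on chromosomes 1 to 19, X and Y. Another 264 long domains with 4247 peaks lay on chromosomes 2, 8, 9, 11, 15 and 19, and 20 with 324 peaks lay on chromosome X. The domains were chosen by the positions of the replicated peaks alone, so their number, length and coverage are descriptions with no test.

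The series is H3K27me3 chromatin immunoprecipitation and sequencing in MEL cells, an immortalized mouse erythroleukaemia line. It has 1 group, with no treatment, genotype or time to compare, and 2 biological replicates. Nothing in the labels says that the replicates were separate cultures. Each replicate was set by the authors against 1 shared control alignment, and each has its own list of peaks beside a pooled list and the replicated list. The lists hold peaks and no read counts, so depth is unknown, and the absence of a peak does not show the absence of the mark. A line is a model of 1 transformed cell type, and the files hold no expression values with which to check its identity.

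H3K27me3 is placed by Polycomb repressive complex 2, whose catalytic subunits are Ezh1 and Ezh2. Polycomb repressive complex 1 binds the mark through its Cbx subunits. The mark is known for broad blankets over genes of other lineages and of development, often starting at CpG islands, and it is removed by the demethylases Kdm6a and Kdm6b.

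Sequences of 5 promoters that lay whole inside long domains show starts with few and with many CG. They are RefSeq promoters on GRCm38.p6, the build that mm10 names, from 250 bases before to 50 after a gene start, printed 5′ to 3′ on the strand of the gene, with each CG in capitals. The genes are Csf1, the macrophage colony-stimulating factor (chr3:107760420-107760719, minus strand), Mapre3, a protein of growing microtubule ends (chr5:30814391-30814690, plus strand), Efna3, a ligand of Eph receptors (chr3:89322890-89323189, minus strand), Cib4, a calcium-binding protein (chr5:30545787-30546086, minus strand), and Cma1, the mast cell chymase (chr14:55944626-55944925, minus strand).
Csf1: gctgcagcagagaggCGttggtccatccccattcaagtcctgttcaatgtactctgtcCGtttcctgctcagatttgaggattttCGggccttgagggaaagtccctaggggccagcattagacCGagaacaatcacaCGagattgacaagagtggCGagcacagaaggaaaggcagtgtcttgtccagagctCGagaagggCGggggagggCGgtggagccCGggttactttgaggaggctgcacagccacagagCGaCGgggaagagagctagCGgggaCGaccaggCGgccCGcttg
Mapre3: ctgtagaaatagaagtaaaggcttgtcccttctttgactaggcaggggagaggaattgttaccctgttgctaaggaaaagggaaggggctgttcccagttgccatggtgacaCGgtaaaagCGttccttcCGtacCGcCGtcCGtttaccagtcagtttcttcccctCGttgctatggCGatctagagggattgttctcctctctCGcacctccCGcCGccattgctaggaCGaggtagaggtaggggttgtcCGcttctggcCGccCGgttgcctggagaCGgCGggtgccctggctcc
Efna3: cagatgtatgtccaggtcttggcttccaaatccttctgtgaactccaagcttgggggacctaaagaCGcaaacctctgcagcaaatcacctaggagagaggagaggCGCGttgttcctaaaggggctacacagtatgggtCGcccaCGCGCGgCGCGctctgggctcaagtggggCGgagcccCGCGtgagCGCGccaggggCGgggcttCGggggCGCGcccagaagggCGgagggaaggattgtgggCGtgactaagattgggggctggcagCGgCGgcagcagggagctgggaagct
Cib4: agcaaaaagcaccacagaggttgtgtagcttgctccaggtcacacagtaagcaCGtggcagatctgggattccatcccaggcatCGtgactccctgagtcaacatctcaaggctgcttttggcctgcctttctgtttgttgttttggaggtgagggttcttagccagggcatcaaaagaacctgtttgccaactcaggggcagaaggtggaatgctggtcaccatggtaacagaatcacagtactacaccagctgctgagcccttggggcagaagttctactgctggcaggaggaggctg
Cma1: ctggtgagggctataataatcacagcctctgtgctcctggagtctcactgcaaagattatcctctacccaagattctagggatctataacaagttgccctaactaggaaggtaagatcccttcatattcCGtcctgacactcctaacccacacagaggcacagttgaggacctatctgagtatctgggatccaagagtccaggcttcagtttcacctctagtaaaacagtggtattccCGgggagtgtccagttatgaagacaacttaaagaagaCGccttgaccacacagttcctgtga

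Among the printed promoters, the CG-rich ones carried fewer peak bases than the CG-poor ones. They were chosen with their values known, so this order does not extend to other promoters. The Cma1 promoter held 3 CG, and all 300 of its bases lay under replicated peaks, with 300 in replicate 1 and 292 in replicate 2. The Cib4 promoter held 2 CG and had 167 bases under replicated peaks, 157 in replicate 1 and 244 in replicate 2. The Csf1 promoter, with 16 CG, had 125, 115 and 143 bases under the same lists.

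The remaining pair differed between replicates. The Efna3 promoter held 22 CG and had 0 bases under replicated peaks, 128 in replicate 1 and 0 in replicate 2. The Mapre3 promoter, with 17 CG, had 44, 51 and 0. These 5 were chosen for display with their values known. Of all 32851 RefSeq promoters of the same length, 94.6% held a CG on either strand, and 23.1% held as many as Efna3 or more, against 85.9% for Cib4. The 51 promoters inside long domains, of 41 genes, had a median of 5 CG, against 7 over all promoters.

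A pair of peak windows of 300 bases, each centred on the summit of the strongest peak of its domain, shows sequence under the mark away from gene starts. Both are on the plus strand of GRCm38.p6 with CG in capitals. The first lies in Fzd3 (chr14:65239692-65239991), 22472 bp from the gene start, with 197 coding bases and 103 intron bases. The second lies outside protein-coding genes (chr14:115032356-115032655), before the miRNA host gene Mir17hg.
Fzd3 domain: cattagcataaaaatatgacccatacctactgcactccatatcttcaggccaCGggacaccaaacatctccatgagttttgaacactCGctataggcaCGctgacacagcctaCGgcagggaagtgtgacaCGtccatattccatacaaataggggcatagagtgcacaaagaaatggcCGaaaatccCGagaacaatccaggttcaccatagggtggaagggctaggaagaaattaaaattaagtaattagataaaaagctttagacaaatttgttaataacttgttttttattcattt
Mir17hg domain: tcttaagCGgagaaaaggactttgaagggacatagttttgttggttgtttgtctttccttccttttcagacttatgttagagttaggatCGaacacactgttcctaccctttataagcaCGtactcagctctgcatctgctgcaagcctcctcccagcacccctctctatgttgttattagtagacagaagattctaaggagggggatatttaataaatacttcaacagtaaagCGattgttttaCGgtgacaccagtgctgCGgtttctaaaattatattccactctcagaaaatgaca

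The Fzd3 window held 7 CG, a number that 4.48% of the 2970 summit windows reached. The window before Mir17hg held 6, which 7.71% reached. The median over all summit windows of the domains was 2 CG, and 88.1% held at least 1. A CG count describes the letters and marks no binding site.

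The long domains ran over genes of many kinds, from a Wnt receptor to proteins of hearing, myeloid growth and the immune system. The longest, of 51122 bp, lay inside Fzd3, a Wnt receptor gene (chromosome 14, 65208525 to 65259646). It covered 73% of the gene and ended 2817 bp before its start. Of its bases, 44.5% lay under peaks in replicate 1 and 43.9% in replicate 2, against 5.68% and 6.9% in flanks of the same length on each side. The next longest, of 46933 bp, held the start of Otof, the calcium sensor of hair cell synapses (chromosome 5, 30417219 to 30464151), with 37.7% covered in replicate 1 and 40.5% in replicate 2. A domain of 43298 bp lay inside Kcnn3, a calcium-activated potassium channel gene, and one of 39423 bp held the start of Cib4.

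Coverage differed more between the replicates in some of these than in others. Kcnn3's domain was covered over 25.3% in replicate 1 and 38.8% in replicate 2, and Cib4's over 40.9% and 57.8%. The domain of 25430 bp around Slc17a3, an organic anion transporter gene, had 18.8% in replicate 1 and 35.6% in replicate 2. The replicates lay close together at Fzd3, at Csf1 with 37.7% and 38.1%, and at Hes1, a repressor that acts downstream of Notch, with 44.4% and 41.5%.

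**Figure D1:**
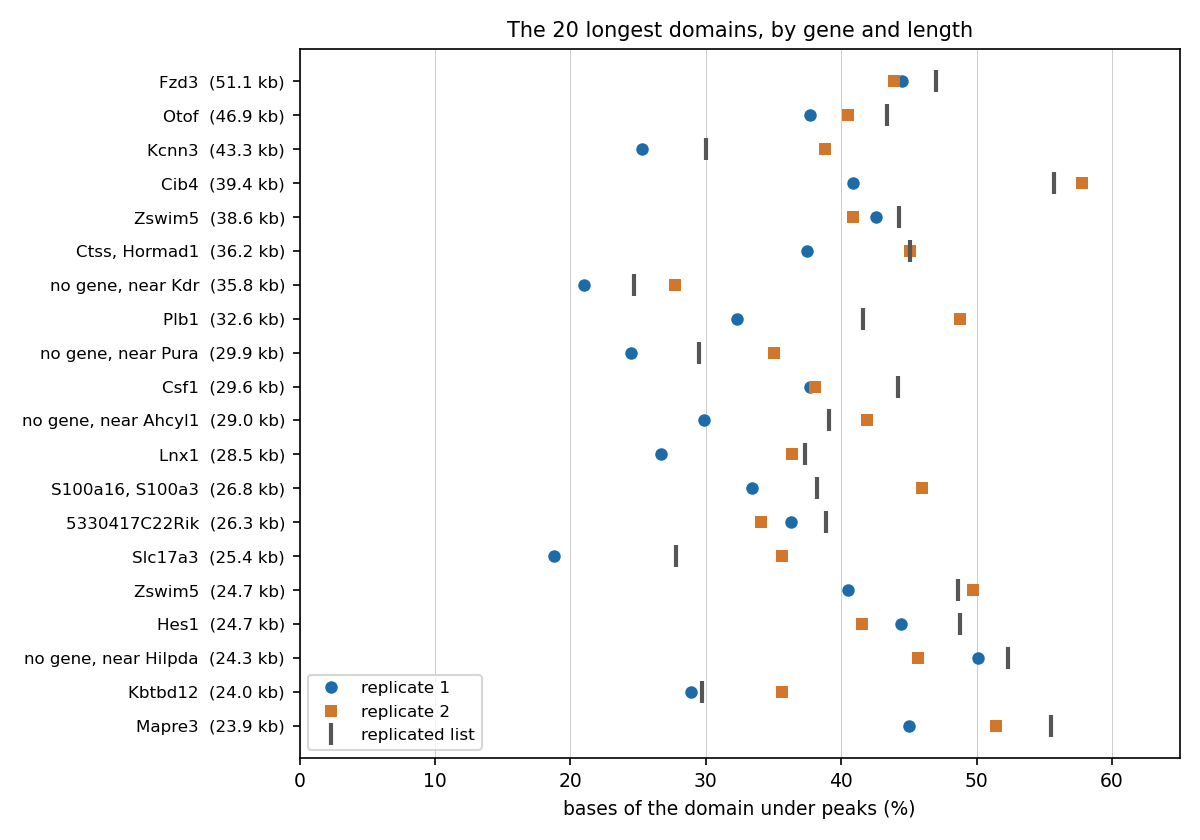
Share of bases under peaks in the 20 longest domains, named by gene and length, with replicate 1 as circles, replicate 2 as squares and the replicated list as bars. Replicate 2 covers more of Kcnn3 (38.8% against 25.3%) and Cib4 (57.8% against 40.9%), while the replicates lie close together at Fzd3 (43.9% against 44.5%).

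The 220 domains were between 10011 and 51122 bp long, with a median of 12858 bp and quartiles of 11073 and 15952 bp, and held 6 to 56 peaks each, with a median of 12. They sum to 3301776 bp, or 0.19% of the 13 autosomes, and hold 18.5% of the bases under replicated peaks there. Just inside the minimum length were domains of 10011 bp in Dnah12, of 10037 bp in Fancc and of 10041 bp without a gene. Just outside it were stretches of 9998 bp over the start of Plau, of 9960 bp in Mapre3 and of 9914 bp in Syne2.

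The domains were spread over all 13 chromosomes, from 5 each on chromosomes 12 and 17 to 29 on chromosome 5. Per 100 Mb this came to 4.16 on chromosome 12 and 19.1 on chromosome 5. Over the 13 autosomes there were 12.7 per 100 Mb, against 36.5 on chromosomes 2, 8, 9, 11, 15 and 19. The median length was 12858 bp on the 13 autosomes, against 13708 bp on those 6 chromosomes. Copy number of the line's chromosomes was not measured in these files, and its part in the difference was not tested.

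In each replicate's own list, median coverage was higher inside the domains than beside them, with ranges that overlapped. Peaks of replicate 1 covered between 8.05% and 77.1% of a domain, with a median of 29.7%, against 0% to 27.2% and a median of 7.72% in the flanks. In replicate 2 the range was 11.6% to 79.5% with a median of 35.3%, against 0% to 35.2% and a median of 10.7% in the flanks. Over the whole 13 autosomes, replicate 1 covered 0.48% and replicate 2 covered 0.749%. Since the replicated list came in part from both replicates' lists, these values are not separate support for the domains, and some flanks hold a neighbouring long domain.

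**Figure D2:**
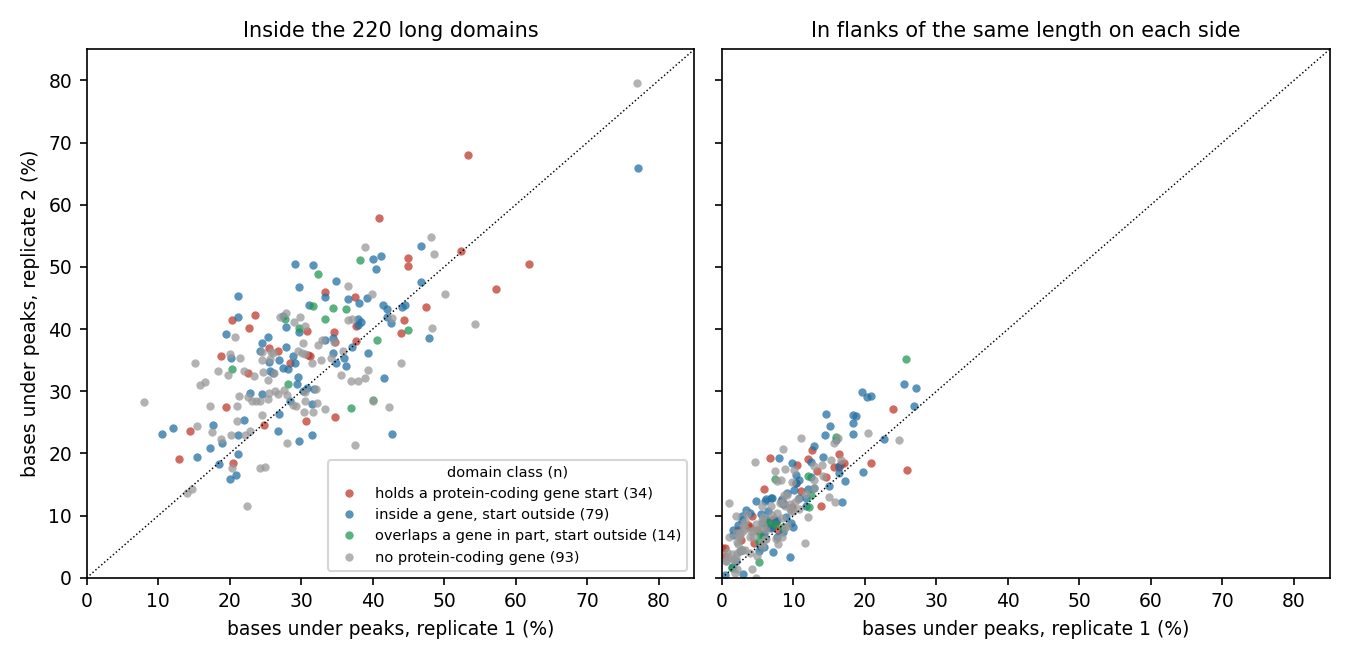
Share of bases under peaks in replicate 1 (x axis) and replicate 2 (y axis), for each of the 220 long domains on the left and its flanks of the same length on the right, coloured by domain class, with a dotted line of equality. Domains reach 77.1% in replicate 1 and 79.5% in replicate 2, while flanks stay at or below 27.2% and 35.2%.

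Replicate 2 had the higher coverage in 154 domains and replicate 1 in 66. Inside the domains replicate 2 covered 1.14 times as many bases as replicate 1, while over the 13 autosomes as a whole it covered 1.56 times as many. Joining each replicate's peaks by the same rule gave 460 long domains in replicate 1 and 974 in replicate 2. At least 50% of a domain's length fell in a long domain of replicate 1 for 184 of the 220, of replicate 2 for 211, and of both for 177. For 2 of the 220 it did so in neither replicate.

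Peaks inside the domains were wider than elsewhere, at a median width of 314 bp, against 266 bp among the other 16843 replicated peaks of these chromosomes. The authors' −log10 q reached 2 in 18% of the peaks inside domains and in 7.22% of the others. Both differences concern the list that chose the domains and carry no test.

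More domains touched a gene than held a gene start. The shares for other stretches of the same length were not computed. Of the 220, 127 overlapped a protein-coding gene (57.7%, exact 95% interval 50.9 to 64.3%), 34 held a protein-coding gene start (15.5%, 10.9 to 20.9%) and 93 held no protein-coding gene. Besides those 34, the 127 comprised 79 that lay wholly inside a gene with its start outside and 14 that overlapped a gene in part with its start outside. On chromosomes 2, 8, 9, 11, 15 and 19, 56.4% of long domains overlapped a gene and 16.7% held a start, which lie within the intervals given. Among all 8361 joined stretches of the 13 autosomes, most of them much shorter, 41.2% overlapped a gene and 1.85% held a start. The intervals treat domains as independent, although many are neighbours.

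Coverage overlapped between these classes. Domains that held a start had a median of 32.4% in replicate 1 and 39.5% in replicate 2, those inside a gene 29.7% and 36.2%, those that overlapped a gene in part 33.9% and 40.9%, and those without a gene 27.9% and 32.1%. Domains without a gene had both the lowest and the highest values of replicate 2, 11.6% and 79.5%. Of the 79 domains inside a gene, 50 contained exon bases and 29 lay in introns alone.

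Seen from the genes, 116 of the 13551 protein-coding genes of these chromosomes overlapped a long domain (0.856%), and 34 had their start in one (0.251%). A replicated peak lay no more than 1 kb from the start in 2.6% of the same genes. Longer genes were overlapped more often, 1.82% of those over 100 kb against 0.303% of those under 10 kb. Starts inside domains did not follow gene length in that way. Their share was 0.217% under 10 kb (10 of 4618 genes), 0.335% from 10 to 50 kb and 0.247% from 50 to 100 kb. Over 100 kb it was 0.0607%, from 1 of 1647 genes. The 82 genes overlapped with their start outside had a median length of 69432 bp and the 34 with their start inside 18805 bp, against 18418 bp over all 13551 genes.

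**Figure D3:**
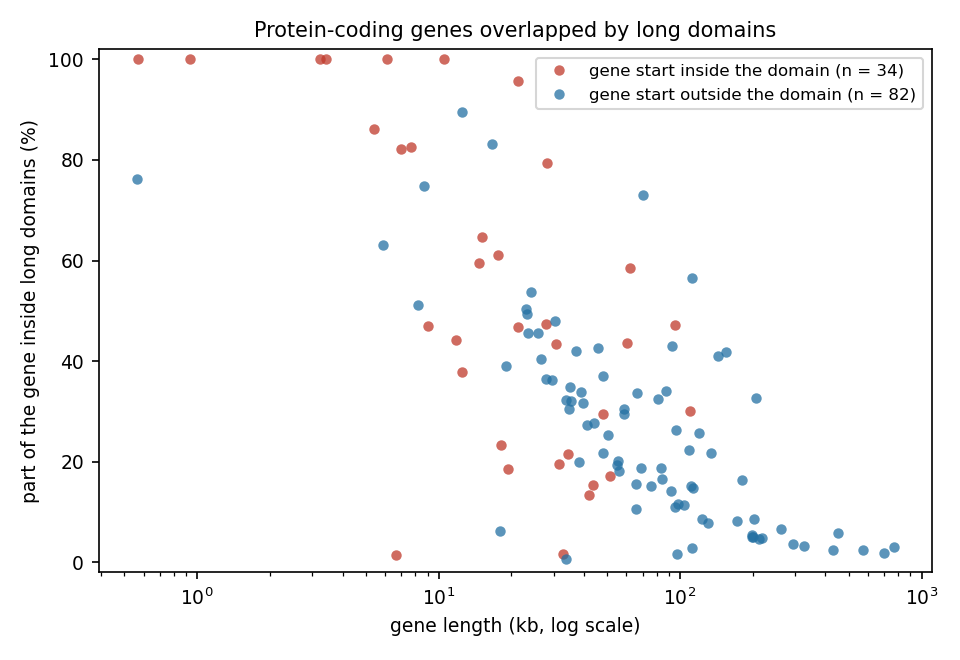
Part of each overlapped protein-coding gene that lies inside long domains (y axis, %) against gene length (x axis, kb, log scale), with starts inside a domain in red and starts outside in blue. The 6 genes at 100% all have their start inside, and most genes with their start outside are covered in part.

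Peaks lay at the gene start where the domain held it, which follows in part from the rule, and less often where it did not. Of the 34 genes with their start inside, 32 had a peak within 1 kb of it in replicate 1, 32 in replicate 2 and 30 in both. Of the 82 with their start outside, 27 had one in replicate 1, 35 in replicate 2 and 24 in both. Among all 13551 genes, 527 had one in replicate 1, 767 in replicate 2 and 355 in both, a smaller part each time. Genes overlapped with their start outside thus differed at the start. In both replicates 0 peak bases lay within 1 kb of the starts of Fzd3, Magi3, Zswim5, Kcnn3 and Cacna1d. Cd4 had 600 such bases in replicate 1 and 741 in replicate 2, and Ctss had 644 and 383. These genes are examples and do not stand for all 82.

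The starts with the most peak bases nearby included genes of the kidney, mast cells and lymphocytes. Hes1 had 6348 bases under replicated peaks within 5 kb of its start, 5704 in replicate 1 and 5103 in replicate 2. Rhbg, an ammonium transporter gene, had 6301, with 5867 in replicate 1 and 4697 in replicate 2.

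Replicate 1 was ahead at both Hes1 and Rhbg. Dpm3, a subunit of an enzyme that feeds sugar chain synthesis, had 6487 replicated bases there, 6450 in replicate 1 and 5374 in replicate 2. Ikzf4, a zinc finger factor of the Ikaros family known from regulatory T cells, had 6145, with 5749 and 5388 in replicates 1 and 2. Sall2, a zinc finger factor of development, had 4738, with 4067 in replicate 1 and 3776 in replicate 2. Dpm3 and Sall2 each had 2 coding transcript starts, of which 1 lay in the domain.

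Of these starts, Sall2 had the fewest peak bases in both replicates. S100a3, a calcium-binding protein gene, had 4499 replicated bases around its annotated start, but 0 of its 3 coding transcript starts lay in the domain. The genes that lay whole inside a domain were 6, namely Hes1, Cma1, Gkn2, a stomach protein gene, Lyg2, a lysozyme-like gene, the interferon gene Ifna1 and the olfactory receptor gene Olfr547. The body of Ifna1 held 0 peak bases in replicate 1, replicate 2 and the replicated list. Lyg2 and Ifna1 were named after their values were seen.

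Cma1 lay under peaks over most of its length. Of its 3225 bp, 75.9% lay under replicated peaks, 71.4% in replicate 1 and 75% in replicate 2. Its neighbour Cma2 had a long domain inside the gene over 50.4% of its length, with its start 2849 bp outside, and 12.3% of its body under peaks in replicate 1 and 16.4% in replicate 2. These domains and another before them formed a neighbourhood of 58536 bp on chromosome 14.

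Starts inside domains were mostly poor in CpG. A start was called CpG-rich where the 500 bp on each side had a GC share of at least 50% and an observed-to-expected CpG ratio of at least 0.6. Of the 34 starts inside, 7 were CpG-rich (20.6%, exact 95% interval 8.7 to 37.9%), and of the 82 starts outside 30 were (36.6%), against 44.7% of all 13551 genes. The 7 were Csf1, Hes1, Efna3, Mapre3, Hormad1, Tdrkh and Kcnj10. Hormad1 belongs to the meiotic chromosome axis, Tdrkh to the piRNA pathway, and Kcnj10 is a potassium channel gene of glia.

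Peak cover was uneven around those 7 starts. In the first 500 bp downstream, 10.3% of the domain bases lay under peaks in replicate 1 and 17.5% in replicate 2. In the next 500 bp the shares were 45.4% and 46.2%. In replicate 2 other 500 bp steps were as low, with 16.4% just upstream of the starts and 20% between 2.5 and 3 kb downstream. At the 27 CpG-poor starts the first 500 bp had 31.3% in replicate 1 and 38.6% in replicate 2. These profiles rest on 7 starts, and no test was made.

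**Figure D4:**
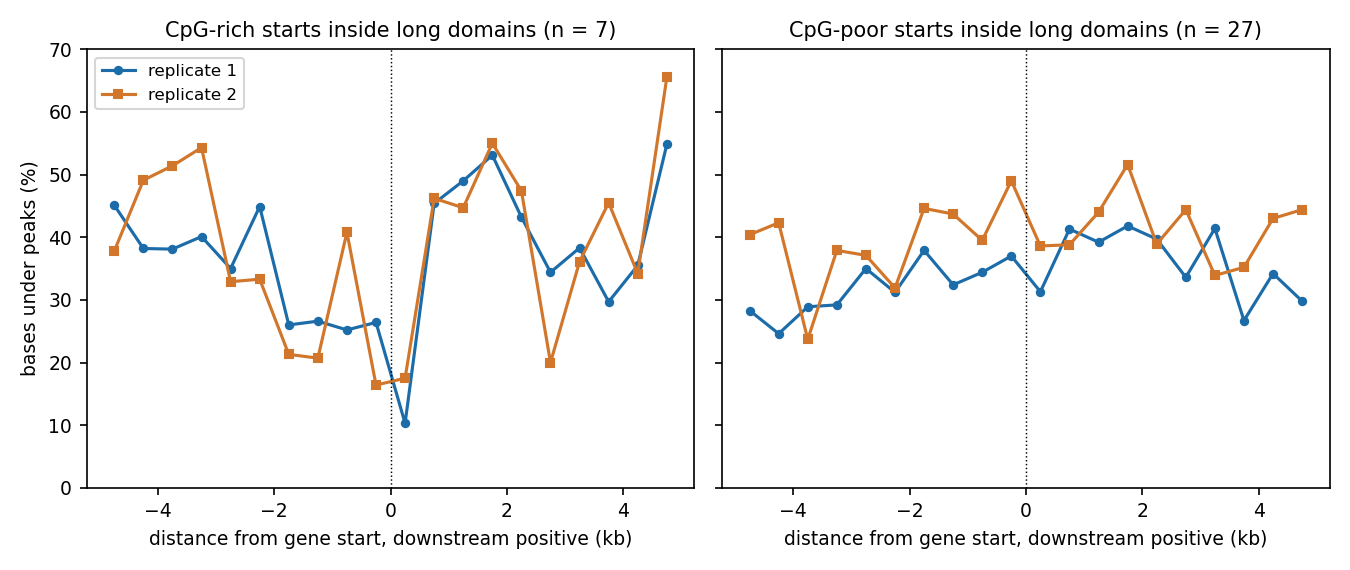
Share of bases under peaks in 500 bp steps around gene starts inside long domains (x axis, kb, downstream positive), counting domain bases only, for 7 CpG-rich starts on the left and 27 CpG-poor starts on the right, replicate 1 as circles and replicate 2 as squares. Just downstream of CpG-rich starts the share is 10.3% and 17.5%, against 31.3% and 38.6% at CpG-poor starts.

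Genes of other blood lineages were among those covered, in small numbers. Of 20 myeloid genes on these chromosomes 2 overlapped a long domain (10%, exact 95% interval 1.23 to 31.7%), against 0.856% of all genes. They were Csf1r, the receptor of Csf1, and Itgam, an integrin of macrophages and granulocytes. Csf1r had its start inside a domain of 12584 bp on chromosome 18, covered over 19.5% in replicate 1 and 27.5% in replicate 2. None of it (0%) fell in a long domain of replicate 1's own peaks, against 100% in one of replicate 2. Itgam held a domain inside the gene, 37226 bp from its start, covered over 31.7% in replicate 1 and 50.3% in replicate 2.

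Both genes of the Csf1 and Csf1r pair, a ligand and its receptor, thus had their starts in long domains of the replicated list. The domain at Csf1 covered its start and 18.6% of the gene and ran upstream to 107786484 on chromosome 3. Another domain of 28955 bp lay beyond the other end of the gene (107708463 to 107737417), with 29.9% covered in replicate 1 and 41.9% in replicate 2. Over the whole gene, with the part inside the domain counted, 3.1% lay under peaks in replicate 1 and 8.06% in replicate 2. This was less than in either domain, but more than the 0.48% and 0.749% over the 13 autosomes.

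Of 28 lymphoid genes 2 overlapped a long domain (7.14%, exact interval 0.877 to 23.5%), against 0.856% of all genes. They were Ikzf4, with its start inside, and Cd4, the coreceptor of helper T cells, with its start 12829 bp outside. Cd4's domain of 11277 bp was covered over 38.2% in replicate 1 and 51.1% in replicate 2. Of 26 megakaryocyte, endothelial and stem-cell genes 1 did (3.85%, 0.0973 to 19.6%), so that both intervals reach down to near or below the share of all genes. It was Kdr, a receptor of vascular endothelial growth factor, with 42.6% of the gene inside and its start 26145 bp outside. Kdr also had the longest domain without a gene next to it, 35811 bp that began 9546 bp upstream of its start, covered over 21% in replicate 1 and 27.7% in replicate 2.

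Of 21 erythroid genes 1 overlapped a long domain (4.76%, exact 95% interval 0.12 to 23.8%, against 0.856% of all genes), Add2, which encodes a subunit of the adducin of the membrane skeleton, with 11.1% of the gene inside and its start 5232 bp outside. Of the 8 erythroid marker genes on these chromosomes, 0 overlapped a long domain, and 0 carried replicated peak bases in the 1 kb on either side of the start, against 0.856% and 2.6% of all genes, so that 8 genes are too few to stand apart. They include the globin genes Hbb-bt and Hbb-bs, and Tal1, Tfrc, Sptb, Kel and Rhag. Of 56 housekeeping and ribosomal protein genes 0 overlapped a long domain, which by the exact interval allows a share of up to 6.38%.

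Cytokine genes and receptors had 5 of 125 members overlapped (4%, 1.31 to 9.09%), and 4 of the 125 had their start inside (3.2%), against 0.856% and 0.251% of all genes. Besides Csf1 and Csf1r they were Il24, Ifna1 and Ifna4. Il24 lay in its domain over 86.1% of its length, with 15.2% of its body under peaks in replicate 1 and 36.6% in replicate 2. Within 1 kb of its start it had 0 peak bases in replicate 1 and 654 in replicate 2. Its domain too lay to 0% in a long domain of replicate 1 and to 100% in one of replicate 2. Ifna1 and Ifna4 shared 1 domain and are members of a family of near-identical copies, so reads there may be split between copies. The interferon genes were named after their values were seen.

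Genes of development and of the nervous system included a few that were overlapped, again against 0.856% of all genes. Of 133 developmental transcription factors 2 were (1.5%), Hes1 and Pax4, both with their start inside. Pax4, a factor of pancreatic endocrine cells, had a domain of 14897 bp with 20.5% covered in replicate 1 and 18.5% in replicate 2, whose strongest peak reached a −log10 q of 0.98, the lowest value among the 220, which other domains shared. Of 81 ligands and receptors of Wnt, BMP, FGF, hedgehog and Notch signalling 2 were (2.47%), Fzd3 and Bmp10, a heart ligand with 74.8% of its length inside. Of 87 axon guidance and adhesion genes 2 were (2.3%), Efna3 and the semaphorin Sema4f.

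Ion channels had 4 of 107 members overlapped (3.74%, 1.03 to 9.3%), namely Kcnn3, Cacna1d, Kcnk3 and Kcnj10. Kcnn3 was overlapped by 3 domains, 1 of which ran past its end, over 64720 bp or 41.8% of its length, with its start 60280 bp away. Cacna1d, a voltage-gated calcium channel gene, held 26213 bp. Kcnk3, a background potassium channel gene, held 15603 bp. Kcnj10 had its start inside but only 544 bp, or 1.65% of its length. The domain at Kcnj10 lay to 0% in a long domain of replicate 1 and to 100% in one of replicate 2. The median gene length of the ion channel list was 45939 bp, against 18418 bp over all 13551 genes. Of 104 neurotransmitter receptor and synapse genes 1 was overlapped, Otof (0.962%, close to the 0.856% of all genes).

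Of 210 solute carriers 3 were overlapped (1.43%, against 0.856% of all genes), Slc17a3, Slc17a2 and the intestinal glucose transporter gene Slc5a1. Of 77 collagen and matrix genes 1 was (1.3%), Col8a1, and of 17 Polycomb genes 1 was (5.88%, 0.149 to 28.7%), Phc2, with its start 10293 bp outside. Of 520 olfactory receptors 1 was (0.192%), and of 325 vomeronasal receptors 0 were, which by the exact interval allows up to 1.13%. All 16 lists were chosen with earlier results known, and gene length differs between them, so no list was tested.

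Domains often came in rows. Within 100 kb of each other, 100 of the 220 formed 36 neighbourhoods of 2 or more, and 64 formed 18 neighbourhoods of 3 or more. On chromosome 5, 4 domains of 112070 bp in all lay from 30417219 to 30607913, over Otof, 1700001C02Rik, Cib4 and Kcnk3. Peaks covered 26.9% of that whole span in replicate 1 and 31.9% in replicate 2. On chromosome 3, 5 domains lay inside Magi3, a scaffold protein gene of cell junctions, and on chromosome 4, 5 lay in a row, of which 4 overlapped Zfyve9 and 3 overlapped 3110021N24Rik.

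Magi3 and Zfyve9 were named after their values were seen. Inside Magi3 the domains held 67651 bp, or 32.7% of the gene, with its start 70159 bp away. Over Zfyve9, a gene of receptor signalling at endosomes, they held 58845 bp, or 41.1% of the gene, with its start 2096 bp outside. Zswim5 held a pair of domains of 38557 and 24685 bp, which made up 56.5% of the gene, with its start 1821 bp outside.

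**Figure D5:**
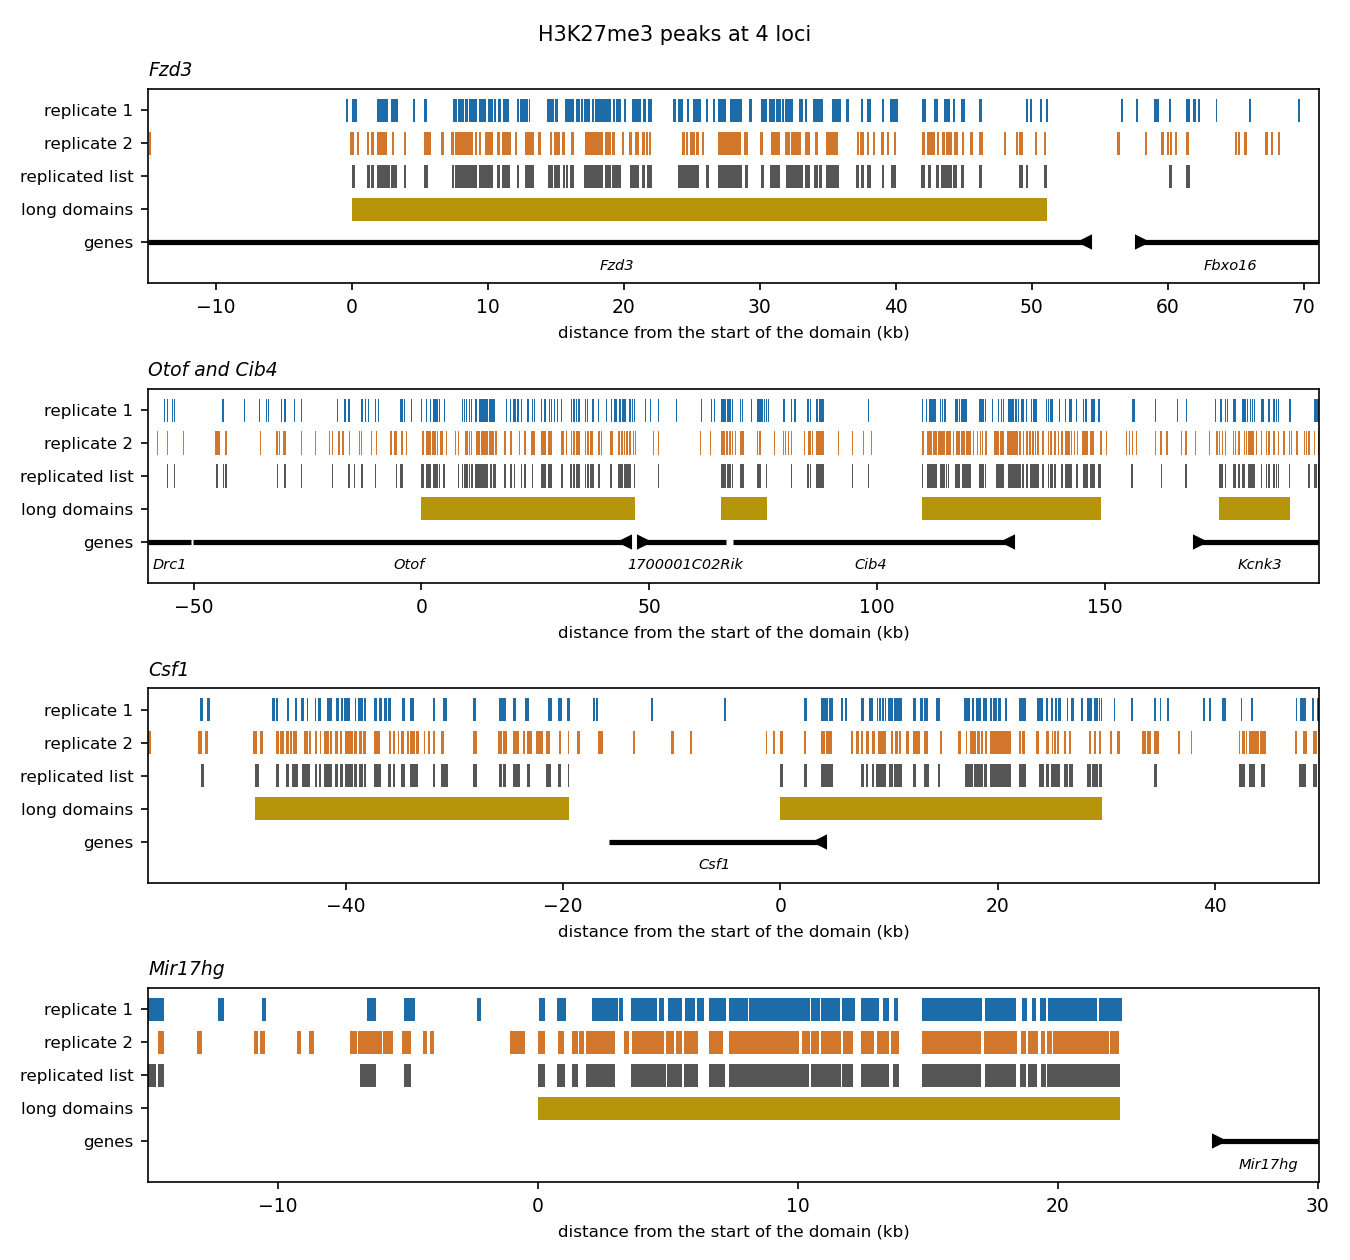
Peaks of replicate 1, replicate 2 and the replicated list, long domains and protein-coding genes at 4 loci, with distance in kb from the start of the named domain and triangles at gene starts pointing along the gene. The Fzd3 domain stops 2817 bp short of the gene start, and Otof and Cib4 have starts inside domains. Most of the body of Csf1 lies between a pair of domains. The last domain stops before Mir17hg, a non-coding gene drawn in the last panel.

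The domain with the highest coverage in the replicated list and in replicate 2 held no gene. It spanned 22380 bp on chromosome 14 (115016679 to 115039058), and 77% of its bases lay under peaks in replicate 1 and 79.5% in replicate 2, against 5.68% and 9.78% in its flanks. In replicate 1 a domain in Smarcd3 reached 77.1%. The strongest peak of the chromosome 14 domain had a −log10 q of 8.62, the highest of the 220 domains. This chromosome 14 domain ended 3820 bp before Mir17hg. That gene is the host of the miRNAs Mir17, Mir18, Mir19a, Mir20a, Mir19b-1 and Mir92-1, a cluster known as an oncogene of blood cells. Mir17hg held 0 peak bases in replicate 1, replicate 2 and the replicated list. The nearest protein-coding start, that of Gpc5, was 53157 bp away. The locus was picked with its values known.

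Another domain without a protein-coding gene lay in the T cell receptor alpha locus, which is rearranged in T cells. It spanned 19578 bp on chromosome 14 (54154326 to 54173903) over 18 of the 60 annotated joining segments, from Traj61 to Traj44. Peaks covered 35.8% of it in replicate 1 and 36.5% in replicate 2, against 6.87% and 11.6% in its flanks. The constant gene Trac began 46617 bp beyond its end. The domain belonged to a neighbourhood of 3 long domains, from 54005292 to 54173903. A further long domain of 17107 bp, from 53858416 to 53875522, lay over the variable segment Trav20, a pseudogene. This locus too was picked with its values known.

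A domain of 12110 bp on chromosome 16 (93359322 to 93371431) held the miRNA gene Mir802 and the non-coding genes 1810053B23Rik and 1810044K17Rik. The mature product, printed with its seed in capitals (bases 2 to 8), is mmu-miR-802-5p, read from RefSeq at chr16:93369737-93369758 on the plus strand of GRCm38.p6.
mmu-miR-802-5p: uCAGUAACaaagauucauccuu

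This domain rested mainly on replicate 2. It was covered over 20.1% in replicate 1 and 36% in replicate 2, and 0% of it fell in a long domain of replicate 1, against 100% in one of replicate 2. The hairpin gene itself had 0 peak bases in replicate 1 and 33 in replicate 2. Mir802 was named after its values were seen.

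Within the domains, peaks held fewer repeats than the gaps between them. Repeats made up 20.3% of the bases under replicated peaks, against 29.9% of the gap bases, 28.1% of the flanks and 34.2% of the 13 autosomes. Peaks held the lower share in 204 of the 220 domains. By each replicate's own peaks the shares were 20.8% of peak bases against 28.9% of gap bases in replicate 1, lower in peaks in 190 domains, and 20.4% against 29.8% in replicate 2, lower in peaks in 199. How well reads could be placed in repeats is not recorded in the files, and its part in this difference was not tested.

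Base composition and gene parts differed little between peaks and gaps. GC made up 43% of peak bases, against 43.9% of gap bases, 44.9% of flank bases and 41.7% of the 13 autosomes, and CpG occurred 8.72 times per kb in peaks, against 9.45 in gaps, 10.8 in flanks and 8.31 overall. Of the bases under replicated peaks 3.42% were exonic, 47.3% intronic and 49.3% outside protein-coding genes. In the gaps 3.45% were exonic and 45.4% intronic, in the flanks 6.05% and 46%, and over the 13 autosomes 3.54% and 35.3%. The domains at Efna3 and Hes1 held 31.7 and 26.4 CpG per kb, the highest values of the 220.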

How the data were processed

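H3K27me3 was measured in 2 replicates of MEL cells, which form 1 group taken from the labels. Per the labels' files, the authors derived each replicate's peaks from its own mm10 alignments and 1 shared control alignment, the pooled peaks from both alignments, and the replicated list from these 3 lists. Which aligner, which caller and which keeping rule were used is not stated. The authors' signal value per peak is a deposited score whose definition is not stated, and it was used only to rank peaks within the replicated list. Each peak's −log10 p-value and −log10 q-value are also the authors', used to describe peaks and as a filter. Read counts were not analysed here, so depth is unknown and intervals of shares cover counts of domains or genes only. An older mm9 list was not used.

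Domains were made from the replicated list by joining peaks within 3000 bp and keeping 10000 bp or more. Covered bases came from the union of peaks, clipped to each region. Genes were those of GENCODE mouse release 21 on GRCm38, and a start was the outermost 5′ end of a gene. A symbol given more than once kept its longest gene. Repeats were the lower-case bases of the NCBI GRCm38.p6 sequence. Intervals are exact Clopper-Pearson 95% intervals. Python 3.11.15, NumPy 2.4.6, SciPy 1.17.1 and matplotlib 3.10.9 were used, and the joining and coverage code was tested on simulated data.

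The domains and the 16 gene lists were chosen with earlier results of these data known. Named genes are those overlapping the 20 longest domains, with the nearest start for a domain without a gene, the 15 starts inside domains with the most replicated peak bases within 5 kb, up to 3 genes per list with the most bases in long domains, and the genes at the 3 domains on either side of the minimum length. A few genes named by this rule are left out here. Other names are said to be chosen after their values were seen, as were Cma2, Smarcd3, Gpc5, Trac, Kcnj10 and 1700001C02Rik. The shares of exons, introns and repeats by replicate and the values by domain class were added later. Alternatives were other peak lists, a −log10 q of 2 or more, the upper 50% by signal value, other joining distances and minimum lengths, and other ways to count genes and starts.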

Additional observations from a re-analysis of the deposited data

How the results depend on the processing

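The number of long domains depended on the settings, in every case by construction since each setting joins other peaks or keeps other lengths. Against 220 there were 2 with peaks of −log10 q of 2 or more, 82 with the upper 50% of peaks by signal value, 561 with the pooled list, 18 joined within 1 kb, 1052 within 10 kb, 876 at a minimum of 5 kb and 24 at 20 kb. With domains built from 1 replicate's own peaks there were 460 to 974. In the same order of settings, leaving out the minimum of 5 kb, the share of domain bases under peaks was 70.8, 37.5, 22.9, 53.9, 15.3 and 36.5% in replicate 1, and 66.8, 42.7, 28.2, 57.7, 19.8 and 42% in replicate 2.

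The share of domains that overlap a gene was 57.7%, and 57.8% from each replicate's own peaks. It was 50% with −log10 q of 2 or more, from 2 domains, 66.7% joined within 1 kb, 75% at 20 kb, 46.4% where 50% of the domain had to lie inside genes and 67.7% with any annotated gene. The share that hold a start was 15.5%, and 14.8 to 16.1% from 1 replicate's peaks. It was 50% with −log10 q of 2 or more, 27.8% joined within 1 kb, 10.4% at 5 kb and 41.7% at 20 kb. The cause of these moves was not tested.

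Peaks held fewer repeats than gaps in 9 of 9 alternatives. In peaks the repeat share was 17.7% with −log10 q of 2 or more, 19.3% with the pooled list and within 10 kb, 21% at 20 kb, and 19.2 to 20.2% with 1 replicate. In gaps it was 31.2% with −log10 q of 2 or more, 30.4% with the upper 50%, 28.4% with the pooled list, 34.6% within 1 kb, 28.5% within 10 kb, 28.9% at 5 kb, 31.6% at 20 kb, and 27.6 to 27.9% with 1 replicate. No paired analysis was possible because the series has 1 group. Read depth is unknown, and its part in the number of peaks of each replicate was not tested.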
